A study of Homo sapiens with 6 samples.

Results

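The transcripts of the fibroblast growth factors (FGF), platelet-derived growth factors (PDGF), angiopoietins and their receptors were compared between HCT116 cells with and without an intact CDKN1A gene. A gene was included when its symbol in the deposited table began with FGF, PDGF or ANGPT, or was FLT1, FLT4, KDR, TEK, TIE1, PGF or FIGF. This rule found 20 of the 770 genes, of which 10 were ligands or soluble relatives of ligands and 10 were receptors. The rule used names only and no measured value.

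HCT116 is a human colorectal carcinoma cell line. The wild-type (WT) cells were compared with an HCT116 derivative of genotype p21-/-, which lacks CDKN1A, the gene for the cell cycle inhibitor p21. Each line was represented by 3 samples, all untreated, and their RNA was read with NanoString's PanCancer Progression panel, which counts transcripts through fluorescent barcodes without amplification. The labels give RPMI with serum as the medium of both lines, whereas the methods of the study give DMEM for the p21-/- cells, so a difference in medium cannot be told apart from genotype if the methods apply. The labels speak of p21-/- knockout clones without saying how many, and the methods name 1 line received from another laboratory, so that differences between clones cannot be told apart from genotype. CDKN1A itself had 4133, 5659 and 4312 normalized counts in the WT samples, against 460, 409 and 388 in those of the p21-/- line, and the position of its probe relative to the disrupted part is not given.

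FGFs are secreted proteins that signal through the FGFR receptor tyrosine kinases, with heparan sulphate on the cell surface as a co-receptor. PDGFs are dimeric ligands made by many epithelial and tumor cells, and their receptors are typical of fibroblasts and mural cells. Angiopoietins act on the receptor TEK (also called TIE2) of endothelial cells, next to the orphan relative TIE1, and FLT1, KDR and FLT4 are the receptors for vascular endothelial growth factors (VEGF). FIGF is the older symbol of VEGFD, a ligand of KDR and FLT4. The angiopoietin-like proteins ANGPTL2 and ANGPTL4 resemble angiopoietins in structure but do not bind TEK.

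The values are barcode counts that, by the authors' description, were scaled to housekeeping genes. Values near background had been replaced by a floor, set 2 SD above the mean negative control, which lay between 25.7 and 34.9 depending on the sample. The counts behind the scaled values summed to 867421 to 1335467 per sample over the genes above the floor. The geometric mean of the spike-in positive controls in the p21-/- line was 0.658 of that in the WT line, and the part of this in the differences reported here was not tested. The replicates of the p21-/- line were closer to each other than those of the WT line, with a median SD on the log2 scale of 0.0634 against 0.160 per gene.

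Of the 20 members, 11 were above the floor in all 6 samples and 6 were at the floor in all 6, compared with 446 and 167 of the 770 genes. The members never detected were ANGPT1, FLT1, FLT4, KDR, TEK and TIE1. They were 5 of the 10 receptors but only 1 of the 10 ligands. The remaining 3 members, ANGPT2, ANGPTL2 and PDGFRB, were detected in some samples. At a limit of 2 times the floor, 8 members were above it in all samples, namely FGF2, PDGFA, PDGFC, ANGPTL4 and the receptors FGFR1, FGFR2, FGFR3 and FGFR4. The other detected members were close to background in at least 1 sample.

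In the comparison of p21-/- with WT cells by limma across the whole panel, 10 of the 20 members passed an adjusted p below 0.05, where 47.8% of all genes did. The share of called genes among the members was thus close to that of the panel. FGF2, FGF18, PDGFA and PDGFRB were higher in p21-/- cells, and PDGFC, ANGPTL4, ANGPT2, FGFR2, FGFR3 and FGFR4 were lower. Over the panel, 21.8% of genes were called higher and 26.0% lower. These were 168 and 200 genes, which became 251 and 169 after median scaling, 214 and 155 after quantile normalization, and 97 and 362 when samples were scaled to 30 housekeeping candidates. These candidates were listed from general knowledge of such panels, since the table does not mark its own. Values of both lines did not overlap for 11 members, which include these 10 and FIGF, against 52.2% of the panel. The median log2 fold change was -0.12 over the members and also over all genes, which is the value the floors alone give to an undetected gene. The balance of directions depended on the scaling, with 4 higher and 6 lower members under the scaling of the authors, 6 and 5 after median scaling, 6 and 3 after quantile normalization, and 3 and 8 with the housekeeping candidates.

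**Figure D1:**
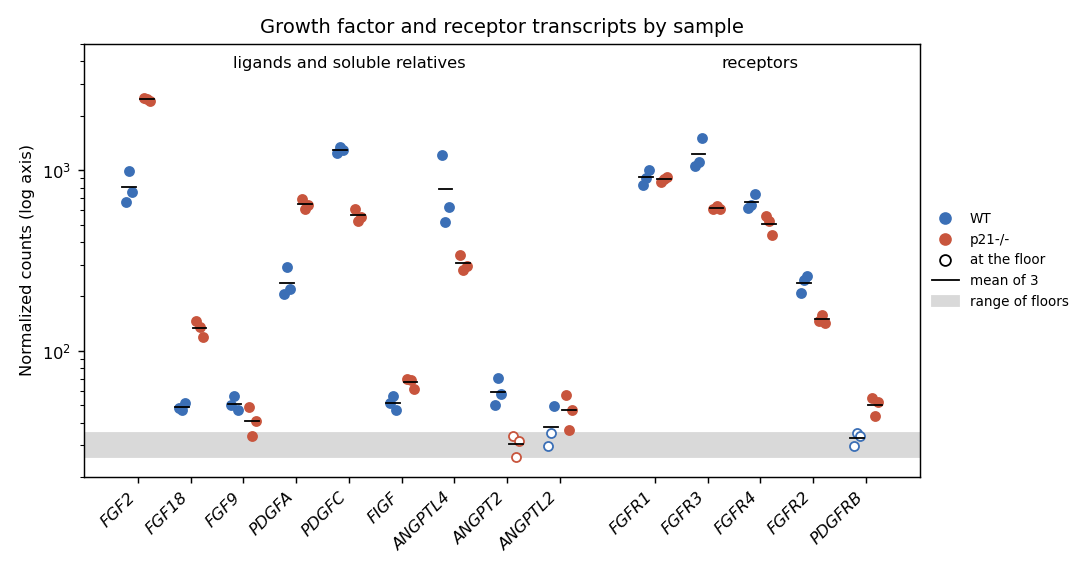
Normalized counts (log axis) of the 14 members above the floor in at least 1 sample, with 3 WT (blue) and 3 p21-/- (red) samples per gene, black lines at the mean and open circles for values at the floor. FGF2 lay between 665 and 994 in WT and between 2428 and 2501 in p21-/- samples, and the floors lay between 25.7 and 34.9.

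The sequences upstream of 4 of the changed genes are shown to place the risen ligands beside a fallen receptor and a fallen soluble relative. They are the called members with an adjusted p below 0.001 that have a single start site among the windows searched in the RefSeq promoter table of GRCh38.p14, and each holds the 250 bases before the annotated start, 5′ to 3′ on the gene strand. Capitals mark the GC box GGGCGG or its complement CCGCCC, the letters that Sp family factors are known to bind.
FGF2 (chr4:122826581-122826830, + strand): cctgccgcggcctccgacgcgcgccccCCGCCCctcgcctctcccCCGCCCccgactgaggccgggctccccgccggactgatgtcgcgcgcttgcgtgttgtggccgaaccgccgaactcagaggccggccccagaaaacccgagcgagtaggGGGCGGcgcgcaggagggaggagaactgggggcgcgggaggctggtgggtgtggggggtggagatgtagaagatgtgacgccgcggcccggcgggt
FGF18 (chr5:171419397-171419646, + strand): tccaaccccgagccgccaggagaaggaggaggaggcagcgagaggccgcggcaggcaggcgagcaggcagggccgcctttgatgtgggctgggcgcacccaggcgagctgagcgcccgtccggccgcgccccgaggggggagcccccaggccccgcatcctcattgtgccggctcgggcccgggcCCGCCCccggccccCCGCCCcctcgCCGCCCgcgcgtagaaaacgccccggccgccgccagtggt
FGFR3 (chr4:1793043-1793292, + strand): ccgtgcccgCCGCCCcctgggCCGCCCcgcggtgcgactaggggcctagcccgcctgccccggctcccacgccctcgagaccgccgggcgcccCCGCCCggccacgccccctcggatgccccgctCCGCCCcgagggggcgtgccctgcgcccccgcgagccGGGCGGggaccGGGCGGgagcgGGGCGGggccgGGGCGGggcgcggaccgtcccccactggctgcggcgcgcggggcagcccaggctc
ANGPTL4 (chr19:8363905-8364154, + strand): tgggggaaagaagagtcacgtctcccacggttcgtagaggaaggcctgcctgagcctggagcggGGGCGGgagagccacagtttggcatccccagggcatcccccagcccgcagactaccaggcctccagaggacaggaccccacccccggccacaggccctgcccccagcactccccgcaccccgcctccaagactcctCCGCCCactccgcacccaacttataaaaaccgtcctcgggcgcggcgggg
The FGF2 and FGF18 windows each held 3 GC boxes, the FGFR3 window 8 and the ANGPTL4 window 2, so these letters occurred upstream of risen and fallen genes alike. Their GC contents were 75.2%, 78.8%, 86.8% and 68.8%. Windows of ANGPT1, ANGPT2, FGF9, FGFR1, FLT4 and PDGFC were not analysed here. The members searched were 14 with 23 windows in all, and a GC box was found in 65.2% of these windows against 42.6% of all 35116 windows. The letters CAGGTG, or CACCTG on the other strand, are an E-box that factors of the SNAI and ZEB families bind. They were found in windows of FGFR2, FGFR4 and PDGFA and in none of the 4 shown, that is in 21.7% of member windows against 17.5% of all windows. These are matches of letters and not measured binding.

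Among the FGF ligands, FGF2 and FGF18 rose and FGF9 did not pass the test. FGF2, the basic fibroblast growth factor, is a mitogen of many cell types that leaves cells by an unconventional route. FGF2 reached 665, 994 and 760 normalized counts in replicates 1, 2 and 3 of the WT line, in this order, and 2501, 2486 and 2428 in those of the p21-/- line. All p21-/- values were above all WT values, and the p21-/- samples differed far less from each other than the WT samples. FGF2, whose upstream window holds 3 GC boxes, was 3.11-fold higher (log2 fold change 1.64, standard error 0.122, adjusted p = 1.13e-08).

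FGF18, a ligand with roles in cartilage and lung development, was low in WT cells, at 48.2, 47.2 and 51.5 normalized counts, and at 146, 135 and 119 in p21-/- cells. The WT values of FGF18 corresponded to 32, 42 and 44 barcode counts, where the highest negative control of the same samples had 26, 30 and 30. FGF18 was therefore just above background in WT cells and clearly above it in p21-/- cells. It was 2.67-fold higher (log2 fold change 1.42, standard error 0.167, adjusted p = 2.17e-06) on the log2(value + 1) scale. The amount added mattered little, as the log2 fold change was 1.43 with 0.5 added. The closeness of the WT values to background limits the precision of this change.

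FGF9, a ligand active in epithelial and mesenchymal crosstalk, had 49.7, 56.2 and 46.8 normalized counts in WT cells and 48.6, 33.7 and 40.7 in p21-/- cells. Its values overlapped between the lines and were all within reach of the floor. The log2 fold change of FGF9 was -0.32 with a 95% interval from -0.68 to 0.04 (adjusted p = 0.149), and it passed the test with the housekeeping candidates (-0.69, adjusted p = 0.00269). After median scaling the FGF9 value was -0.11 (adjusted p = 0.57), and it ranged from -0.44 to -0.19 with single samples left out.

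Of the FGF receptors, FGFR2, FGFR3 and FGFR4 were lower in p21-/- cells, while FGFR1 did not pass the test. FGFR1, the FGF receptor typical of mesenchymal tissues, had 826, 905 and 1005 normalized counts in WT cells and 864, 890 and 917 in p21-/- cells. The p21-/- values lay within the range of the WT values. The log2 fold change of FGFR1 was -0.03, with a 95% interval from -0.25 to 0.19 (adjusted p = 0.819). The direction of FGFR1 depended on the scaling, and it passed the test in opposite directions after quantile normalization (0.16, adjusted p = 0.00249) and with the housekeeping candidates (-0.42, adjusted p = 0.00132).

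FGFR3, whose activating mutations cause skeletal dysplasias and occur in bladder cancer, had 1061, 1108 and 1510 normalized counts in WT cells and 608, 636 and 609 in p21-/- cells. The lines did not overlap, and the p21-/- values were again the tighter group. FGFR3 was 1.96-fold lower (log2 fold change -0.97, standard error 0.125, adjusted p = 6.14e-06). FGFR2, which has epithelial and mesenchymal splice forms that the panel values do not separate, had 209, 245 and 258 normalized counts in WT cells against 147, 158 and 142 in p21-/- cells. The lines did not overlap. The FGFR2 log2 fold change was -0.66 (standard error 0.153, adjusted p = 0.00163), and after quantile normalization it was -0.24 with an adjusted p of 0.104.

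FGFR4, the receptor for bile acid-regulating FGF19 in the liver, fell from 615, 645 and 738 normalized counts in WT cells to 559, 521 and 440 in p21-/- cells. The gap between the lowest WT and the highest p21-/- value of FGFR4 was slightly under the SD within each line, 64.2 in WT and 60.8 in p21-/- cells. Its log2 fold change was -0.40 (standard error 0.123, adjusted p = 0.0132). The call was lost after median scaling (-0.18, adjusted p = 0.185), after quantile normalization (-0.08, adjusted p = 0.657), in an ordinary linear model (adjusted p = 0.0799) and without p21-/- replicate 3 (-0.30, adjusted p = 0.123).

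Ratios of FGFR1 to the other receptors within each sample do not change when a sample is scaled by a single factor, although quantile normalization can change them. The FGFR1 to FGFR3 ratio was 0.778, 0.817 and 0.665 in WT cells and 1.42, 1.40 and 1.51 in p21-/- cells, a 1.92-fold difference. The FGFR1 to FGFR2 ratio was 3.94, 3.70 and 3.89 in WT cells and 5.89, 5.62 and 6.43 in p21-/- cells. FGFR1 to FGFR4 ratios were 1.34, 1.40 and 1.36 in WT cells and 1.55, 1.71 and 2.08 in p21-/- cells. For each ratio all p21-/- samples lay above all WT samples. The pairs were chosen with the changes of these genes known. Each of the 4 ratios computed gave an exact permutation p of 0.1 (two-sided, n = 3 each), before and after adjustment over the 4, which is the smallest p that 3 against 3 samples allow. Probe efficiency differs between genes, so a ratio within a sample does not give the relative number of transcripts.

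**Figure D2:**
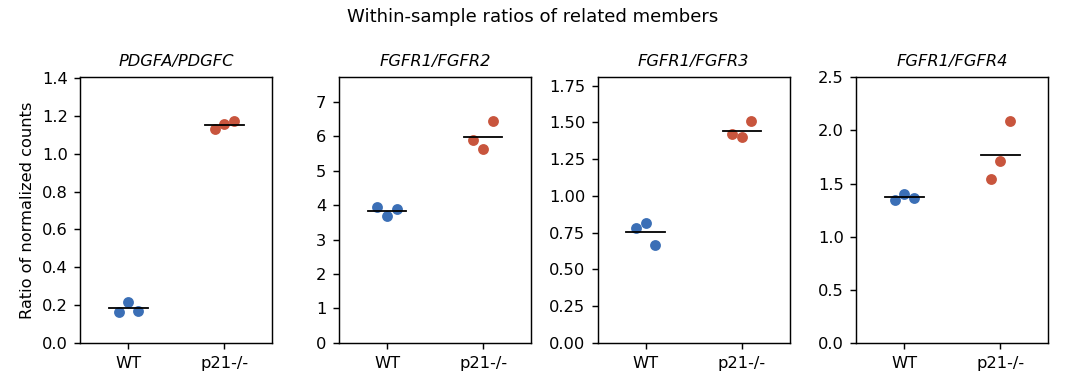
Ratios of normalized counts between related members in each sample, on linear axes from 0, with 3 WT (blue) and 3 p21-/- (red) samples per panel and black lines at the geometric mean. The PDGFA to PDGFC ratio moved from 0.182 to 1.15, and the FGFR1 to FGFR3 ratio from 0.751 to 1.44.

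The PDGF ligands moved in opposite directions. PDGFA, which encodes the A chain that binds PDGFRA, had 205, 292 and 219 normalized counts in WT cells and 693, 607 and 644 in p21-/- cells. PDGFC, whose protein must be cleaved outside the cell to become active, had 1237, 1339 and 1302 normalized counts in WT cells and 613, 525 and 550 in p21-/- cells. No WT value of either gene overlapped a p21-/- value. PDGFA was 2.74-fold higher (log2 fold change 1.45, standard error 0.145, adjusted p = 3.5e-07), and PDGFC was 2.30-fold lower (log2 fold change -1.20, standard error 0.101, adjusted p = 4.9e-08). Within each sample, the PDGFA to PDGFC ratio was 0.166, 0.218 and 0.168 in WT cells and 1.13, 1.16 and 1.17 in p21-/- cells, a 6.32-fold difference that scaling by a single factor per sample leaves as it is (exact permutation p = 0.1, n = 3 each).

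PDGFRB, the receptor of fibroblasts and pericytes that binds the PDGF B and D chains, lay at the floor throughout the WT line and at 55.0, 43.7 and 52.2 normalized counts in the p21-/- line. These values stood for 51, 48 and 59 barcode counts, beside highest negative controls of 33, 25 and 31. PDGFRB was thus above background in p21-/- cells by a small margin. It was at least 1.22-fold higher (adjusted p = 0.00376), and the call was lost with the floor at its upper limit in each sample (adjusted p = 0.120) and after scaling to the housekeeping candidates (adjusted p = 0.158). Of the 12 fibroblast and mural cell markers in the table, FAP, LUM and COL6A3 were at the floor in all samples, CSPG4, MCAM and COL1A1 were above it in all, and the other 6 in some. The summed level of this list was 740 to 971 normalized counts in the WT line and 997 to 1151 in the p21-/- line, and its part in the PDGFRB values was not tested. The samples were cultures of cell lines. In their bulk RNA, a changed share of expressing cells and a change per cell cannot be told apart.

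Of the angiopoietins, ANGPT1 was not detected and ANGPT2 was detected in WT cells only. ANGPT2, a context-dependent antagonist of TEK that loosens vessels, had 49.7, 70.8 and 57.3 normalized counts in WT cells and lay at the floor throughout the p21-/- line. The WT values were 33, 63 and 49 barcode counts, where the highest negative controls had 26, 30 and 30. ANGPT2 was at least 1.90-fold lower in p21-/- cells (adjusted p = 0.000214). Both angiopoietins were thus near or below background in these cells.

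ANGPTL4, a secreted inhibitor of lipoprotein lipase induced by fasting and hypoxia, fell from 1215, 517 and 622 normalized counts in WT cells to 341, 279 and 295 in p21-/- cells. All WT samples were above all p21-/- samples, but WT replicate 1 stood well above the other WT samples. The ANGPTL4 log2 fold change was -1.26 (standard error 0.226, adjusted p = 0.000176) and -0.90 without WT replicate 1, and the call was lost after quantile normalization (adjusted p = 0.148) and in an ordinary linear model (adjusted p = 0.0676).

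ANGPTL2, a secreted protein linked to inflammation, was at the floor in 2 of 3 WT samples, at 49.1 normalized counts in the other, and at 57.2, 36.4 and 46.9 in p21-/- samples. The values overlapped, with a log2 fold change of 0.30 (95% interval -0.12 to 0.73, adjusted p = 0.267). FIGF had 51.2, 56.2 and 46.8 normalized counts in WT cells and 70.1, 69.2 and 61.1 in p21-/- cells. The FIGF values did not overlap, yet the difference narrowly missed the threshold (log2 fold change 0.37, 95% interval 0.03 to 0.72, adjusted p = 0.075), which it passed in 7 of the 17 other settings, with adjusted p from 0.00682 after median scaling to 0.0461 in an ordinary linear model. It was -0.01 when samples were scaled to the housekeeping candidates.

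The endothelial receptors TEK, TIE1, FLT1, KDR and FLT4 were at the floor throughout. Of 9 endothelial markers in the table, ROBO4, EMCN, TAL1, NOS3 and SELE were also at the floor in all samples, EGFL7 and MMRN2 were above it in all, and PECAM1 and S1PR1 in some. The endothelial list summed to 632 to 864 normalized counts in the WT line and 536 to 588 in the p21-/- line. Of 3 leukocyte markers in the table, PTPRC and ITGAM were at the floor in all samples and CD163 was above it in some, with a summed level of 0 in the WT line and 0 to 33.7 in the p21-/- line. The colorectal epithelial markers EPCAM, CDH1, KRT19, CLDN3, CLDN4, CLDN7, ELF3 and ESRP1 were above the floor in all, CEACAM1 and CEACAM5 were at it in all, and GRHL2 and CEACAM6 were above it in some. The 13 markers of this list in the table summed to 36376 to 40661 normalized counts in the WT line and 17170 to 17979 in the p21-/- line, and its part in the lower FGFR2, FGFR3 and FGFR4 values was not tested.

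**Figure D3:**
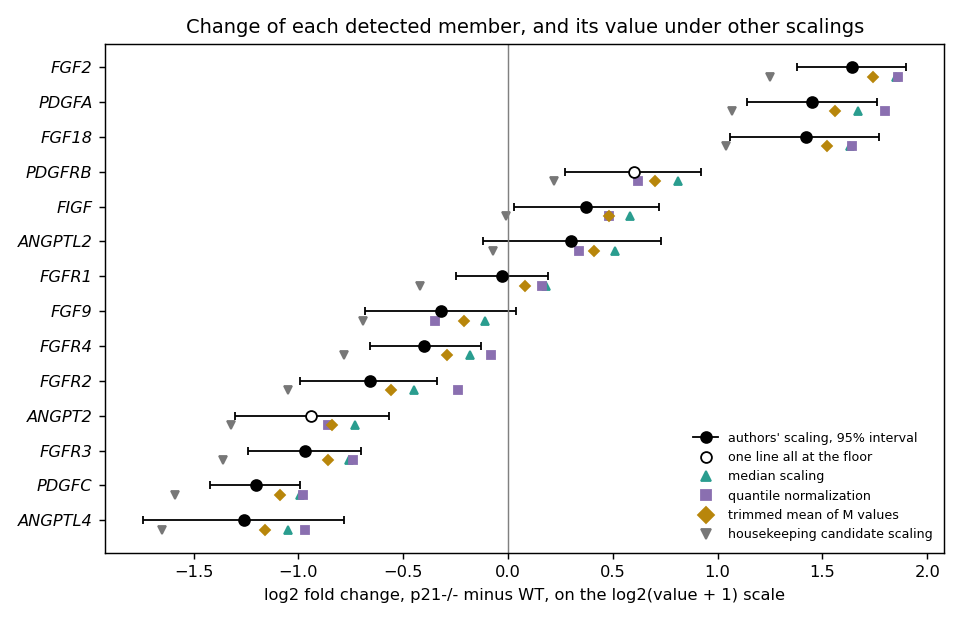
Log2 fold change (p21-/- minus WT, on the log2(value + 1) scale) of the 14 detected members, with 95% intervals from limma in black, open circles where one line was wholly at the floor, and colored symbols for other scalings between samples. FGF2, PDGFA and FGF18 stayed at or above 1.04 and PDGFC at or below -0.98 under all 4 other scalings, whereas FGFR1, FIGF and ANGPTL2 changed sign under at least 1.

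Across the 17 other settings tried, FGF2, FGF18, PDGFA, PDGFC, FGFR3 and ANGPT2 kept their call and direction in every one. The log2 fold change over all settings ranged from 1.25 to 1.86 for FGF2, from 1.04 to 1.64 for FGF18, from 1.07 to 1.80 for PDGFA, from -1.59 to -0.98 for PDGFC and from -1.36 to -0.74 for FGFR3. ANGPT2 ranged from -1.32 to -0.73, with values that the floor limits.

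Genes that work with these ligands and receptors were read from 4 lists written from general knowledge, with earlier results of these data known. Of the heparan sulphate and co-receptor list, 7 of 24 genes were in the table, of which 1 rose, 3 fell and SULF1, NCAM1 and CDH2 were at the floor in all samples. The called share of 57.1% was close to the 47.8% of the panel. HSPG2, which encodes perlecan, a basement membrane proteoglycan that stores FGF2, fell from 625 ± 172 to 91.0 ± 14.8 normalized counts (SD, 3 samples per line), 6.67-fold lower (adjusted p = 8.86e-09). SDC4, a transmembrane heparan sulphate proteoglycan, fell from 3902 ± 366 to 1453 ± 38.2, 2.68-fold lower (adjusted p = 1.37e-09). HPSE, the enzyme that cleaves heparan sulphate, fell from 853 ± 53.4 to 543 ± 37.6 (adjusted p = 7.75e-05). AGRN, which encodes the proteoglycan agrin, was the member of this list that rose, from 319 ± 56.0 to 592 ± 39.4 (adjusted p = 4.82e-05). The median log2 fold change of the list was -0.12, beside -0.12 over all genes. This is the value the floors alone give to SULF1, NCAM1 and CDH2, so it does not describe the detected genes. Their log2 fold changes were -2.74 for HSPG2, -1.42 for SDC4, -0.65 for HPSE and 0.90 for AGRN. The directions of these 4 genes held under all 4 scalings.

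Of the VEGF and PDGF partner list, 12 of 17 genes were in the table, and 8 rose, 2 fell and VEGFC and PTPRB were at the floor in all samples. These 10 were 83.3% of the list, beside 47.8% of the panel called, with 21.8% higher and 26.0% lower. The neuropilins, co-receptors for VEGF that also take up other heparin-binding ligands, were both higher, with log2 fold changes of 3.26 for NRP1 and 1.66 for NRP2 (adjusted p = 1.75e-11 and 4.78e-06). NRP2 was at the floor in 1 of 3 WT samples, so its value depends partly on the floor. The largest rises besides were those of SPARC, a matrix protein that binds PDGF, which was at the floor in 2 of 3 WT samples and between 4244 and 4981 normalized counts in p21-/- cells, and of THBS1, an inhibitor of angiogenesis, with a log2 fold change of 2.17. VEGFA, the main ligand of KDR and FLT1, fell from 3463, 5317 and 5478 normalized counts in WT cells to 2237, 2260 and 2158 in p21-/- cells (log2 fold change -1.07, standard error 0.135, adjusted p = 4.78e-06). ST14, an epithelial membrane protease that can process PDGF-D, fell from 3406 ± 310 to 1774 ± 34.7 (adjusted p = 1.88e-07). The median log2 fold change of the list was 0.46, beside -0.12 over all genes. After scaling to the housekeeping candidates, 6 of its 12 genes were called, beside 459 of the 770 genes of the panel, so that its called share was no longer above that of the panel.

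The list of signal transducers had 22 of 42 genes in the table, of which 5 rose, 10 fell and 7 did not pass. The called share was 68.2%, beside 47.8% of the panel, and the median log2 fold change was -0.18, beside -0.12 over all genes. No transducer was wholly at the floor, whereas 167 of the 770 panel genes were, and such genes were never counted as called. The shares were thus not taken over like sets of genes, and the part of detection in their gap was not tested. The -0.12 is again the value of an undetected gene, and the panel median was -0.05 when only genes above the floor were used. The balance of rises and falls turned with the scaling, to 8 higher and 6 lower after median scaling and 2 higher and 17 lower with the housekeeping candidates. PIK3CA, the catalytic subunit of phosphoinositide 3-kinase that is often mutated in colorectal cancer, rose from 348 ± 33.8 to 679 ± 43.2 normalized counts (adjusted p = 4.35e-06), and PLCG1, a phospholipase that docks on activated FGF and PDGF receptors, rose from 740 ± 47.9 to 1344 ± 98.4 (adjusted p = 1.93e-06). These increases held under all 4 scalings. MAP2K1 and PTK2, the kinases MEK1 and FAK, had smaller log2 fold changes of 0.33 and 0.25 that became -0.05 and -0.14 with the housekeeping candidates.

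PIK3CD, the catalytic subunit typical of leukocytes, fell from 197 ± 18.2 to 61.5 ± 8.76 normalized counts (adjusted p = 5.82e-07). RRAS, a small GTPase related to RAS, fell from 403 ± 34.7 to 185 ± 8.02 (adjusted p = 3.68e-06), and STAT3, a transcription factor downstream of cytokine and growth factor receptors, fell from 1752 ± 171 to 1195 ± 17.2 (adjusted p = 0.000131). The direction of these 3 falls was the same under all 4 scalings.

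Only 2 of 20 listed feedback inhibitors and response genes were in the table. ETV4, a transcription factor induced by FGF signaling, rose from 678, 767 and 816 normalized counts in WT cells to 1290, 1334 and 1287 in p21-/- cells (log2 fold change 0.79, standard error 0.0996, adjusted p = 4.57e-06). MYC, with a log2 fold change of -0.39 (adjusted p = 0.0128), overlapped between the lines and was not called after median scaling or quantile normalization. Sprouty and DUSP inhibitors of the pathway were not analysed here.

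**Figure D4:**
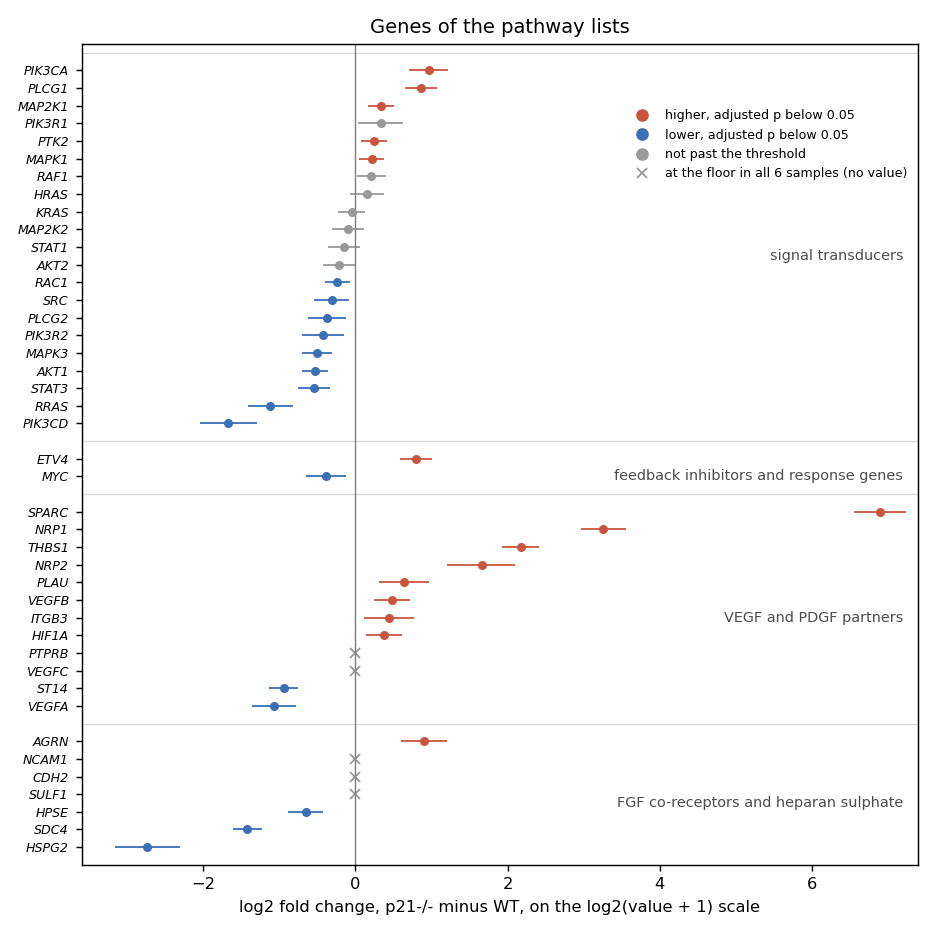
Log2 fold change (p21-/- minus WT, on the log2(value + 1) scale) with 95% intervals from limma for genes of the 4 pathway lists, in red where higher, blue where lower and grey where the test was not passed, and crosses for genes at the floor in all 6 samples. SPARC at 6.89 and NRP1 at 3.26 lie farthest to the right and HSPG2 at -2.74 farthest to the left, and SPARC (in 2 of 3 WT samples), NRP2 (in 1) and ITGB3 (in all 3) were at the floor, so that their plotted values depend on it.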

How the data were processed

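Expression was measured in 6 samples of HCT116, 3 per genotype, which were grouped by their deposited labels. The gene values are a signal, namely barcode counts that the authors normalized with positive controls and 30 housekeeping genes in nSolver. Division by 1 factor per sample turned 100% of the detected values below 500 into whole numbers, within 0.1 count, and these are the barcode counts in the text. Since the floor replaced low counts, no count model was run.

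limma 3.58.1 in R 4.3.3 was applied to log2(value + 1) of all 770 genes, with an intensity trend, no filter, no covariate and Benjamini-Hochberg adjustment, two-sided, after tests on simulated data. Intervals are 95% intervals from limma. A change against a line wholly at the floor is printed as a bound, computed against the highest level that the floor allows in each sample. Genes at the floor in all 6 samples were never counted as called. Marker list sums count values at the floor as 0.

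All members are named. Of each pathway list, up to 4 rises and 4 falls past the threshold, without overlap and averaging 20 or more in the higher line, are named, and MYC was added as the remaining gene of its list. Genes at the floor in all samples are named besides. Members, lists, ratios and tests were chosen with earlier results of these data known. The labels describe biological replicates. Other pseudocounts, filters, scalings, priors, a replicate block and leaving out each sample were tried. Symbols of 19 members matched RefSeq directly and 1 as a synonym. PGF was not analysed here, and 1 signal transducer and 1 epithelial marker enter the counts but are not reported here by name.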

Additional observations from a re-analysis of the deposited data

How the results depend on the processing

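Counts of called members stayed between 9 and 11 under all settings, and leaving out each sample in turn gave 9 to 11 called members, of which 4 to 5 were higher and 5 to 6 lower, and 332 to 395 called genes in all against 368. With quantile normalization only 3 members were called lower. The partner list had 6 called genes with housekeeping candidate scaling instead of 10, and 9 to 10 without single samples. Of the feedback and response genes, 1 was called after median scaling, quantile normalization, with a constant prior variance and in an ordinary linear model, and 1 to 2 with single samples left out, where the count of 1 was that without WT replicate 3. Signal transducers had 10 to 19 calls with single samples left out, and 4 co-receptor genes were called each time. FGFR1 reversed to 0.18 after median scaling, 0.16 after quantile normalization (adjusted p = 0.00249), 0.08 after trimmed mean scaling and 0.04 without WT replicate 3, with a range of -0.1 to 0.04 over single samples left out. Scaling to the housekeeping candidates turned ANGPTL2 to -0.07 and FIGF to -0.01. The cause of these changes was not tested. Relative to the scaling of the authors, the median gene above the floor moved by 0.21 after median scaling, 0.20 after quantile normalization, 0.11 with the trimmed mean and -0.39 with the housekeeping candidates, on the log2 scale. ANGPTL2 passed the threshold after median scaling (0.51, adjusted p = 0.028) and without p21-/- replicate 2 (0.47, adjusted p = 0.0316). It shrank to 0.06 with the floor at its upper limit in each sample (adjusted p = 0.778). Without WT replicate 1, and likewise without p21-/- replicate 1, the ANGPTL2 value was 0.15. With the replicate number as a block, 10 members and 363 genes were called, but same-numbered samples of the lines shared only a number, with correlations of their deviations of 0.0757, -0.0544 and 0.0524. The values of ANGPT2, ANGPTL2, FGF9, FIGF, PDGFRB and, in WT cells, FGF18 lie close to the floor and rest on few barcode counts, which limits their precision.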
